A study of Homo sapiens with 4 samples.

Results

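The genes described are 38 components of the unfolded protein response and of protein folding in the endoplasmic reticulum (ER), out of 23228 gene symbols counted. They were chosen by name for their known function, with earlier results of these data known. They comprised 7 stress sensors and transcription factors, 12 lumenal chaperones and folding factors and 5 disulfide oxidoreductases. Another 11 were factors of ER-associated degradation and 3 were factors of protein translocation. All 38 were found, 37 under the listed symbol and VIMP under the older symbol SELS (selenoprotein S), and all 38 had enough counts to be tested. The cells were U87 MG, an established human glioblastoma line, grown in DMEM with 10% serum and transfected with either a control siRNA or an siRNA against PELP1. PELP1 is a coregulator of nuclear receptors that also contacts chromatin enzymes. Total RNA was collected at 72 hours after transfection, with 2 libraries in each group. The siRNA sequences are not stated in the labels, and neither is whether replicates came from separate cultures, so the p-values rest on a spread between libraries that may be technical. All cells came from a single line, and a single time point was measured.

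The ER folds secreted and membrane proteins. When unfolded proteins accumulate there, 3 membrane sensors signal to the nucleus and the ribosome: IRE1 (encoded by ERN1), which splices XBP1 mRNA, ATF6, which is cleaved in the Golgi to release a transcription factor, and PERK (EIF2AK3), which phosphorylates the translation factor eIF2 and favours synthesis of ATF4. ATF6 and spliced XBP1 switch on chaperones such as BiP (HSPA5) and GRP94 (HSP90B1), oxidoreductases that form disulfide bonds, and factors that send misfolded proteins back to the cytosol for degradation by the proteasome. Counts per gene do not separate spliced from unspliced XBP1 mRNA, and they do not measure cleavage of ATF6 or phosphorylation of PERK.

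Counts assigned to genes numbered 18670162 to 22858988 per library. PELP1 itself had 74.0 and 78.1 CPM with control siRNA and 15.2 and 17.7 CPM with PELP1 siRNA, where CPM stands for counts scaled to an equal library size by the TMM method. Its log2 fold change of PELP1 siRNA over control siRNA was -2.21 (SE 0.097, adjusted p = 8.32e-14, edgeR quasi-likelihood test). Over all 13234 genes tested, 1712 were called higher and 1980 lower at an adjusted p under 0.05, and the median log2 fold change was 0.00088. Of 10 astroglial and glioblastoma markers, VIM, CD44, EGFR, NES and SOX9 were well counted, GFAP had 24 to 35 counts and OLIG2 25 to 50 counts per library, S100B and SOX2 had at most 2, and AQP4 had 0. The summed level of these 10 markers was 9730 and 9860 CPM with control siRNA and 7820 and 8190 CPM with PELP1 siRNA, with 4 called lower and 1 higher. Of 6 markers of plasma cells, which secrete heavily, 4 had at most 5 counts in every library. SDC1 carried nearly all of the plasma cell sum of 173 and 173 CPM with control siRNA and 159 and 167 CPM with PELP1 siRNA and was not called (adjusted p = 0.149), and PRDM1 was called higher (8.57 against 12.7 CPM, adjusted p = 0.00174). The 6 epithelial markers summed to 1.7 to 1.98 CPM per library. CDH1, KRT5, KRT14 and KRT20 had at most 5 counts, EPCAM was called higher on 13 to 33 counts (adjusted p = 0.0188) and CLDN4 lower on 4 to 20 counts (adjusted p = 0.0432). Of the 5 endothelial markers, CDH5 and CLDN5 had at most 5 counts, PECAM1 had 11 to 28, VWF had 7 to 11 and KDR was called lower (13.7 against 9.67 CPM, adjusted p = 0.00380). Of the immune markers, PTPRC and CD3E had at most 2 counts and CD68 and CSF1R were well counted and not called. Of 6 neuronal markers, RBFOX3, SLC17A7 and NEFL had at most 3 counts, SYT1 and GAD1 were not called and SNAP25 was called lower (48.3 against 31.3 CPM, adjusted p = 9.03e-06). The part of these marker shifts in the results on the 38 genes was not tested.

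Promoters of this gene group are known for the ER stress response element (ERSE), bound by ATF6 together with NF-Y, so the members that carry it are shown before their values. Promoter windows run from 250 bases before to 50 bases after each annotated start and come from RefSeq (GRCh38.p14), where 35 of the 38 members were matched. Both strands were searched for the ERSE, spelled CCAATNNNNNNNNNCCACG. It stood in 7 of the 35 members (20%) and in 25 of 27305 genes with a window (0.0916%). Capitals mark the 10 fixed letters, 5 flanking bases stand on either side, the coordinates are those of the element, and each is written in the reading direction of the element.
HSPA5, chr9:125241391-125241409: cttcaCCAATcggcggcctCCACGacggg
HSP90B1, chr12:103930216-103930234: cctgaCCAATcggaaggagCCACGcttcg
HSP90B1, chr12:103930321-103930339, opposite strand to the gene: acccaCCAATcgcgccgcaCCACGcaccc
CALR, chr19:12938384-12938402, opposite strand to the gene: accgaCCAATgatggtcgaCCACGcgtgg
CANX, chr5:179698778-179698796: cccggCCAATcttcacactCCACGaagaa
PDIA6, chr2:10812853-10812871: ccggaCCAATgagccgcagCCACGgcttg
XBP1, chr22:28800603-28800621: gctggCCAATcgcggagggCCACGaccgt
CRELD2, chr22:49918554-49918572, opposite strand to the gene: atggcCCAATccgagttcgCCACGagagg

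The related ERSE-II, spelled ATTGGNCCACG, stood in 3 of the 35 members (8.57%) and in 19 of 27305 genes (0.0696%). Capitals again mark the fixed letters.
HYOU1, chr11:119057380-119057390, opposite strand to the gene: ctgggATTGGaCCACGtcacg
HYOU1, chr11:119057274-119057284, opposite strand to the gene: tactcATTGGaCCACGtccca
HERPUD1, chr16:56932025-56932035: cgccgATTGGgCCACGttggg
SDF2L1, chr22:21642114-21642124, opposite strand to the gene: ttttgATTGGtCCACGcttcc
The XBP1 and ATF6 element TGACGTGG stood in HYOU1 and SEC62 (5.71% of members, 0.927% of all genes), and in HYOU1 it overlapped the first ERSE-II listed. The ATF4 composite element, spelled TGATGNAA, stood in CREB3L2 and HERPUD1 (5.71% of members, 4.46% of all genes). TGACGTCA, added after the other 4 elements had been fixed, stood in CREB3L2 (2.86% of members, 2.25% of all genes). In CREB3L2 the TGACGTCA lay at chr7:138002258-138002265 and the ATF4 composite element at chr7:137932965-137932972, in windows of different annotated starts. A match is a description of these letters and not evidence of binding.

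The 2 whole windows printed here, chosen after the values were seen, belong to a member that was not called and to a member called lower. HSPA5 encodes BiP, the abundant Hsp70 chaperone of the ER whose promoter is the textbook example of the ERSE. Its window lies at chr9:125241294-125241593 on the minus strand (GRCh38.p14) and holds 61.3% G or C, with the exact ERSE match in capitals.
HSPA5: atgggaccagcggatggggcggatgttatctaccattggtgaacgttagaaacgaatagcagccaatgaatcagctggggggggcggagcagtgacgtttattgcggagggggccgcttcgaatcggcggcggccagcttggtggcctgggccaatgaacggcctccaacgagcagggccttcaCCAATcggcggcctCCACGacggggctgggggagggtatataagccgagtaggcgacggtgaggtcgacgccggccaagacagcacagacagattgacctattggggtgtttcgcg
HYOU1 encodes GRP170, a large Hsp70-like chaperone that also acts as nucleotide exchange factor for BiP. Its window lies at chr11:119057156-119057455 on the minus strand and holds 78.0% G or C, with the pair of ERSE-II elements in capitals, here in reverse complement.
HYOU1: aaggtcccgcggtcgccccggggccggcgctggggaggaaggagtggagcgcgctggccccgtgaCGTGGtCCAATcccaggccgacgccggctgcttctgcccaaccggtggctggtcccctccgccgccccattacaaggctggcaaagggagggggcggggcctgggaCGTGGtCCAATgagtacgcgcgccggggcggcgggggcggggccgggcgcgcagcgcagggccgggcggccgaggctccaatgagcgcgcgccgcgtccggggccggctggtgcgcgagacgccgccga

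The comparison asked how transcripts of the ER stress response differ when PELP1 is silenced. None of the 38 genes was called higher and 10 were called lower: ERN1, CREB3L2, HYOU1, CANX, P4HB, HERPUD1, EDEM1, SEL1L, SYVN1 and OS9. That is 26.3% of the members called lower, where 15% of all genes tested were called lower and 12.9% higher (edgeR quasi-likelihood test, Benjamini-Hochberg adjusted p under 0.05). At an unadjusted p under 0.05, 1 member was higher (DERL1) and 12 were lower, where 18.7% of all genes tested were higher and 20.2% lower. DESeq2 called 8 members lower and 0 higher among the 37 it gave an adjusted p, against backgrounds of 11.3% lower and 9.4% higher, and limma-voom called 10 lower and 0 higher, against 14.8% and 12.6%. The median log2 fold change of the members was -0.072. The changes were small: ERN1 fell by 52.3%, and of the other called members OS9 fell by 27.4%, the most, and P4HB fell by 12.6%, the least. Only ERN1 passed a test against a minimum fold of 1.5, which 1.18% of all genes passed as lower and 0.378% as higher.

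Both PELP1 siRNA libraries lay below both control libraries in 18 of the 38 members, where 32.3% of all genes tested did so. Both lay above in 6 members, where 32% of all genes did so, and in the other 14 the groups overlapped. Summed over the 38 genes, the level was 11650 and 11925 CPM in the control libraries and 10910 and 10744 CPM in the PELP1 siRNA libraries. Chaperones made up most of that sum, with 6749 and 6965 CPM in control and 6381 and 6256 CPM in PELP1 siRNA libraries. As these are bulk samples, fewer cells that express a gene and less of its RNA per cell cannot be told apart.

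**Figure D1:**
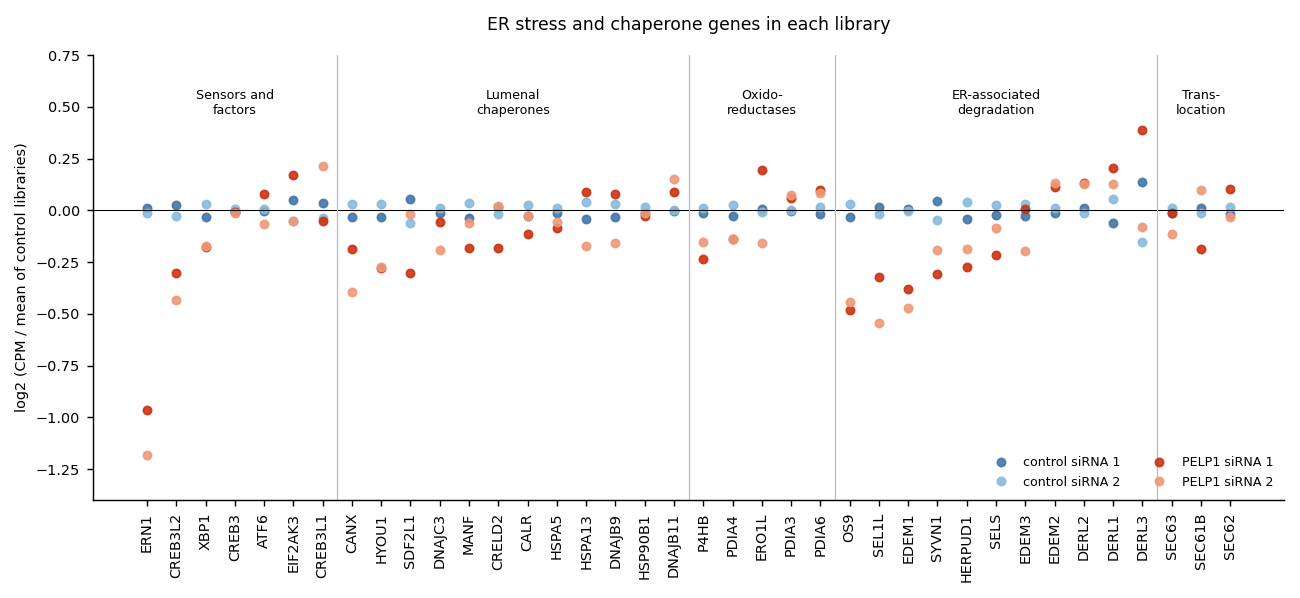
Level of each of the 38 genes in each of the 4 libraries, as log2 of its CPM over the mean of the control libraries, grouped by role and ordered by fold change within a role. The PELP1 siRNA points of ERN1 lie near -1, those of OS9, SEL1L and EDEM1 lie between -0.6 and -0.3, and most chaperones stay within 0.3 of the control mean.

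**Figure D2:**
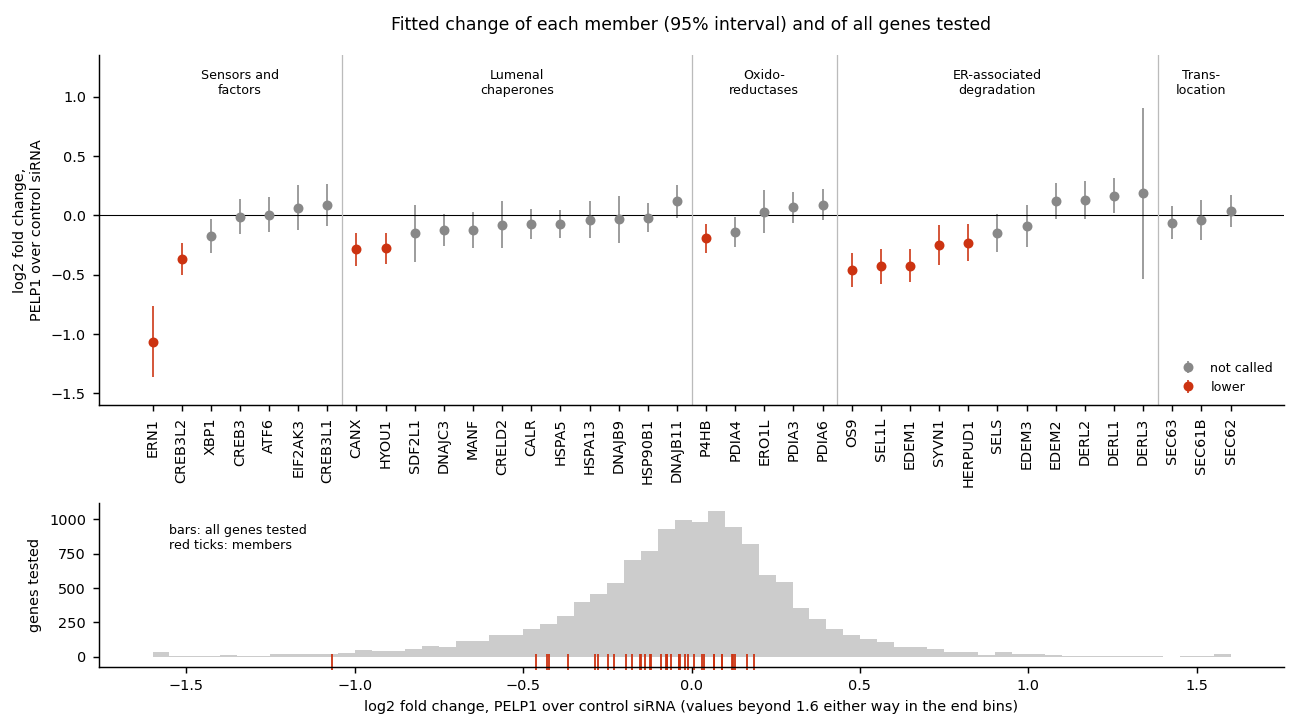
Fitted log2 fold change of each of the 38 genes with its 95% interval (top; red, called lower; grey, not called) and the distribution of fold changes over the 13234 genes tested with the members as red ticks (bottom). The called members have intervals wholly below 0, and most of the others span 0.

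Among the sensors and transcription factors, 2 of 7 fell (28.6%, beside 15% of all genes) and 0 rose (beside 12.9%). ERN1 (GRCh37 chr17:62116440-62208179, minus strand) encodes IRE1, the sensor that is both a kinase and the nuclease that splices XBP1 mRNA. It had 11.2 and 11.02 CPM in the control libraries and 5.69 and 4.90 CPM in the PELP1 siRNA libraries, from 217, 247, 112 and 93 counts. The groups did not overlap, and the difference between them was larger than the spread within either group (log2 fold change -1.07, SE 0.14, 95% interval -1.37 to -0.77, adjusted p = 6.04e-06). ERN1 kept its call in all 13 alternative fits without a minimum fold, with log2 fold changes from -1.18 to -0.96. CREB3L2 (chr7:137559725-137686832, minus strand), also called BBF2H7, is a transmembrane factor of the same kind as ATF6 that promotes genes of secretory transport. Its level was 310 and 299 CPM with control siRNA and 247 and 225 CPM with PELP1 siRNA. Both PELP1 siRNA libraries were lower (log2 fold change -0.37, SE 0.066, adjusted p = 0.000175), and the call held in all 13 alternatives.

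The other 2 sensors were not called. ATF6 had 138 and 139 CPM with control siRNA and 146 and 133 CPM with PELP1 siRNA, so the PELP1 siRNA libraries lay on either side of the control pair (log2 fold change 0.0072, 95% interval -0.14 to 0.15, adjusted p = 0.950). EIF2AK3, which encodes PERK, had 50.2 and 46.8 CPM with control siRNA and 54.6 and 46.8 CPM with the PELP1 siRNA (log2 fold change 0.065, 95% interval -0.12 to 0.25, adjusted p = 0.626). The 3 sensors thus had fitted values of -1.07, 0.0072 and 0.065, and a difference between them was not tested. XBP1, whose spliced mRNA encodes the transcription factor downstream of IRE1, had 118 and 124 CPM with control siRNA and 107 and 107 CPM with PELP1 siRNA. The groups did not overlap, and the adjusted p was 0.0619 (log2 fold change -0.18, SE 0.069). For XBP1 it was 0.0480 without a filter on low counts and 0.0486 with a stricter filter. It was 0.163 with scaling by total counts, 0.125 with DESeq2 and 0.103 with replicate number as a block. When each library was left out in turn, the log2 fold change of XBP1 ranged from -0.21 to -0.14. CREB3, also called Luman, lay between 102 and 104 CPM in all 4 libraries (log2 fold change -0.010, adjusted p = 0.929). CREB3L1, also called OASIS, which was first described in astrocytes, had 77.3 and 73.5 CPM with control siRNA and 72.8 and 87.6 CPM with the PELP1 siRNA (log2 fold change 0.089, adjusted p = 0.461).

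Of the 12 lumenal chaperones and folding factors, 2 fell (16.7%, near the 15% of all genes called lower) and 0 rose (12.9% of all genes were called higher), with a median log2 fold change of -0.074. HYOU1 (chr11:118914899-118927938, minus strand) had 247 and 258 CPM in the control libraries and 208 and 208 CPM in the PELP1 siRNA libraries. The PELP1 siRNA pair was nearly identical and lay below both control libraries (log2 fold change -0.28, SE 0.064, adjusted p = 0.00199). The HYOU1 call was lost without control library 1 (adjusted p = 0.0679) and without control library 2 (adjusted p = 0.177). CANX (chr5:179105629-179158642, plus strand) encodes calnexin, the membrane-bound lectin that holds newly made glycoproteins for folding. It had 1705 and 1783 CPM with control siRNA and 1532 and 1328 CPM with PELP1 siRNA. The groups did not overlap, although the PELP1 siRNA libraries lay further apart than the control pair (log2 fold change -0.29, SE 0.066, adjusted p = 0.00207). Without control library 2 the adjusted p of CANX was 0.112.

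HSPA5, HSP90B1 and CALR, 3 abundant chaperones that carry an ERSE, were not called. HSPA5, the most used marker of ER stress, had 1255 and 1276 CPM with control siRNA and 1193 and 1215 CPM with PELP1 siRNA. Its PELP1 siRNA libraries were both lower than its control libraries, but the log2 fold change was only -0.071 (95% interval -0.19 to 0.05, adjusted p = 0.385). HSP90B1, which encodes the Hsp90 chaperone GRP94, had 1229 and 1254 CPM with control siRNA and 1219 and 1232 CPM with the PELP1 siRNA (log2 fold change -0.019, 95% interval -0.14 to 0.10, adjusted p = 0.836), and its groups overlapped. CALR, which encodes calreticulin, the soluble partner of calnexin, had 1506 and 1564 CPM against 1417 and 1505 CPM (log2 fold change -0.072, 95% interval -0.20 to 0.05, adjusted p = 0.395). For these 3 genes the intervals leave room for a loss of at most 0.20 on the log2 scale and a gain of at most 0.10.

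The remaining 7 chaperones and folding factors had log2 fold changes between -0.15 and 0.12. SDF2L1, a component of the BiP chaperone complex, was the lowest at -0.15, with 18.0 and 16.6 CPM in control and 14.01 and 17.0 CPM in PELP1 siRNA libraries (adjusted p = 0.349). DNAJC3, also called p58IPK, a lumenal J-domain partner of BiP, had 241 and 245 CPM against 233 and 212 CPM (log2 fold change -0.12, adjusted p = 0.170). The secreted neurotrophic factor MANF, which is retained in the ER when calcium is high, had 109 and 114 CPM against 98.2 and 107 CPM (log2 fold change -0.12, adjusted p = 0.228). In both DNAJC3 and MANF the groups did not overlap. CRELD2, a lumenal folding factor, stood at -0.077 on the log2 scale (adjusted p = 0.577). HSPA13, an Hsp70 relative of microsomes, stood at -0.036 (adjusted p = 0.754), and DNAJB9, the J protein ERdj4 that restrains IRE1, stood at -0.034 (adjusted p = 0.822). In these 3 genes the groups overlapped. DNAJB11, the J protein ERdj3, was the highest of the chaperones, with 136 and 136 CPM in control and 145 and 151 CPM in PELP1 siRNA libraries (log2 fold change 0.12, adjusted p = 0.191). It shares 34.7% of its exon bases with another annotated gene on the same strand.

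Of the 5 disulfide oxidoreductases, 1 fell (15% of all genes were called lower) and 0 rose. P4HB (chr17:79801035-79818732, minus strand) encodes protein disulfide isomerase, which is also the beta subunit of the prolyl hydroxylase of collagen. It had 1277 and 1302 CPM with control siRNA and 1096 and 1159 CPM with PELP1 siRNA. The groups did not overlap (log2 fold change -0.19, SE 0.059, adjusted p = 0.0168), but the P4HB call was lost without control library 1 (adjusted p = 0.242), without control library 2 (adjusted p = 0.317) and with scaling by total counts (adjusted p = 0.0673). PDIA4, also called ERp72, had 469 and 488 CPM against 435 and 435 CPM, without overlap (log2 fold change -0.14, adjusted p = 0.0946). PDIA3, the ERp57 that works with calnexin and calreticulin, had 283 and 284 CPM against 295 and 299 CPM (log2 fold change 0.067, adjusted p = 0.446). PDIA6, which binds IRE1, had 325 and 333 CPM against 353 and 348 CPM (log2 fold change 0.091, adjusted p = 0.285). In PDIA3 and PDIA6 the PELP1 siRNA libraries lay above the control libraries, opposite to P4HB and PDIA4. PDIA6 shares 29.7% and PDIA3 16.0% of the exon bases with genes of the opposite strand. ERO1L, the oxidase that recharges protein disulfide isomerase, had 92.1 and 91.3 CPM in the control libraries and 105 and 82.2 CPM in the PELP1 siRNA libraries, which lay on either side of the control pair (log2 fold change 0.031, adjusted p = 0.827). With only 1 PELP1 siRNA library kept, ERO1L was called in opposite directions, at -0.15 on the log2 scale without library 1 (adjusted p = 0.0213) and at 0.20 without library 2 (adjusted p = 0.00102).

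ER-associated degradation held 5 of the 10 lower members, out of 11 tested (45.5%, beside 15% of all genes), and 0 higher ones (beside 12.9%), with a median log2 fold change of -0.15. SYVN1, the ubiquitin ligase HRD1, sits in the ER membrane with SEL1L, its adaptor. OS9 is a lectin that delivers misfolded glycoproteins to SEL1L, EDEM1 helps trim their mannose residues, and HERPUD1 is a stress-induced membrane protein of the same ligase complex. Each of these 5 genes had both PELP1 siRNA libraries below both control libraries, as did 32.3% of all genes tested. OS9 (chr12:58087624-58122125, plus strand) had 153 and 160 CPM with control siRNA and 112 and 115 CPM with the PELP1 siRNA (log2 fold change -0.46, SE 0.068, adjusted p = 1.76e-05). It shares 23.0% of its exon bases with an annotated gene on the opposite strand, and the labels state no strand setting for the counting. The lower members HYOU1 (13.4%), P4HB (13%), EDEM1 (9.39%), CANX (6.86%), ERN1 (3.04%) and SYVN1 (2.88%) also share exon bases with genes of the opposite strand. Among members not called, such sharing was largest in DERL3 (87.3%), PDIA6 (29.7%), PDIA3 (16.0%), EIF2AK3 (14.4%) and CALR (14.2%). SEL1L (chr14:81937891-82000197, minus strand) had 282 and 275 CPM with control siRNA and 223 and 191 CPM with the PELP1 siRNA (log2 fold change -0.43, SE 0.071, adjusted p = 7.71e-05). EDEM1 (chr3:5229331-5261643, plus strand) had 186 and 185 CPM with control siRNA and 142 and 134 CPM with the PELP1 siRNA (log2 fold change -0.42, SE 0.067, adjusted p = 3.94e-05). OS9, SEL1L and EDEM1 were called lower in all 13 alternatives without a minimum fold.

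SYVN1 and HERPUD1 moved less. SYVN1 (chr11:64889252-64902003, minus strand) had 70.2 and 65.9 CPM with control siRNA and 55.0 and 59.6 CPM with the PELP1 siRNA (log2 fold change -0.25, SE 0.081, adjusted p = 0.0247). HERPUD1 (chr16:56966054-56978776, plus strand) had 84.9 and 89.8 CPM with control siRNA and 72.3 and 76.8 CPM with the PELP1 siRNA (log2 fold change -0.23, SE 0.075, adjusted p = 0.0250). Both calls were lost with scaling by total counts (adjusted p = 0.0708 for SYVN1 and 0.0730 for HERPUD1) and with DESeq2 (0.0646 and 0.0612). Leaving out control library 1 (0.421 and 0.198) or control library 2 (0.174 and 0.412) also ended both calls.

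**Figure D3:**
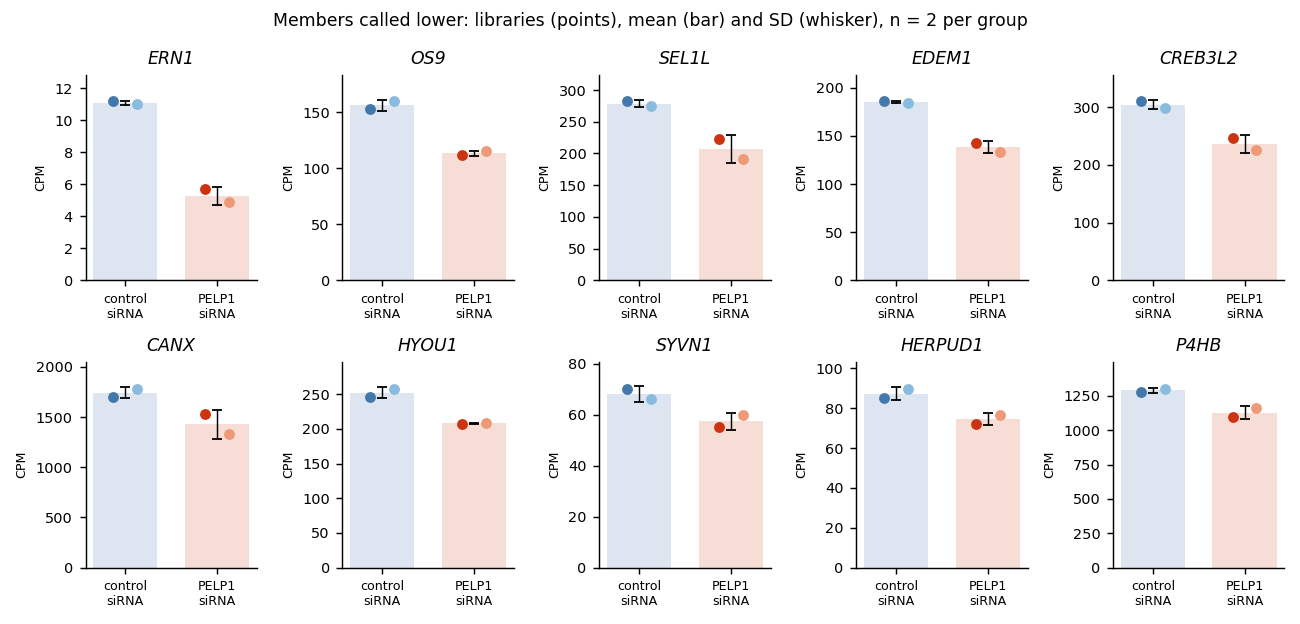
CPM of the 10 genes called lower in each library (points), with the group mean (bar, from 0) and SD (whisker, n = 2 libraries per group). In each panel both PELP1 siRNA points lie below both control points, with means of 5.29 against 11.1 CPM for ERN1 and 1127 against 1290 CPM for P4HB.

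The other 6 degradation factors were not called, and their signs were mixed. The rhomboid-like DERL1 and DERL2, which pass substrates through the membrane, had PELP1 siRNA libraries above their control libraries. DERL1 had 118 and 127 CPM with control siRNA and 141 and 134 CPM with the PELP1 siRNA (log2 fold change 0.17, SE 0.070, adjusted p = 0.0827). DERL1 was called higher with scaling by total counts (adjusted p = 0.0267). DERL2 had 57.5 and 56.6 CPM against 62.4 and 62.2 CPM (log2 fold change 0.13, adjusted p = 0.236). EDEM2, a mannosidase of the family of EDEM1, had 72.5 and 73.6 CPM against 79.1 and 80.0 CPM (log2 fold change 0.12, adjusted p = 0.230). EDEM3 of the same family had overlapping groups, with 60.8 and 63.3 CPM against 62.3 and 54.2 CPM (log2 fold change -0.091, adjusted p = 0.455). The 3 EDEM genes therefore had fitted values of -0.42, 0.12 and -0.091. SELS, the membrane selenoprotein that recruits the ATPase p97, had 80.8 and 83.6 CPM against 70.8 and 77.5 CPM (log2 fold change -0.15, adjusted p = 0.153). DERL3 rested on 16 to 23 counts per library (log2 fold change 0.18, 95% interval -0.54 to 0.91, adjusted p = 0.730), and 87.3% of its exon bases are shared with SMARCB1 on the opposite strand.

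Of the 3 translocation factors, 0 were called, and in each the groups overlapped. SEC61B, a subunit of the channel itself, had 99.0 and 97.5 CPM with control siRNA and 86.3 and 105 CPM with the PELP1 siRNA (log2 fold change -0.038, adjusted p = 0.765). SEC62 and SEC63, partners of the channel that help substrates enter after their synthesis, had log2 fold changes of 0.036 (adjusted p = 0.720) and -0.060 (adjusted p = 0.543).

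Levels were compared between genes per length of the canonical transcript. In control libraries CALR was the most abundant member at 808 CPM per kb, followed by P4HB (529), HSP90B1 (446), CANX (355) and HSPA5 (323). The lowest were EDEM3 (9.08), ERN1 (1.41) and DERL3 (0.288). The lower members thus spanned nearly the whole range, from CANX and P4HB to ERN1. With PELP1 siRNA the level per kb was 768 for CALR, 463 for P4HB, 440 for HSP90B1, 291 for CANX and 307 for HSPA5, so that CANX and HSPA5 changed places, although with PELP1 siRNA they lay within the SD of CANX (29.3 CPM per kb, n = 2 libraries) of each other.

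**Figure D4:**
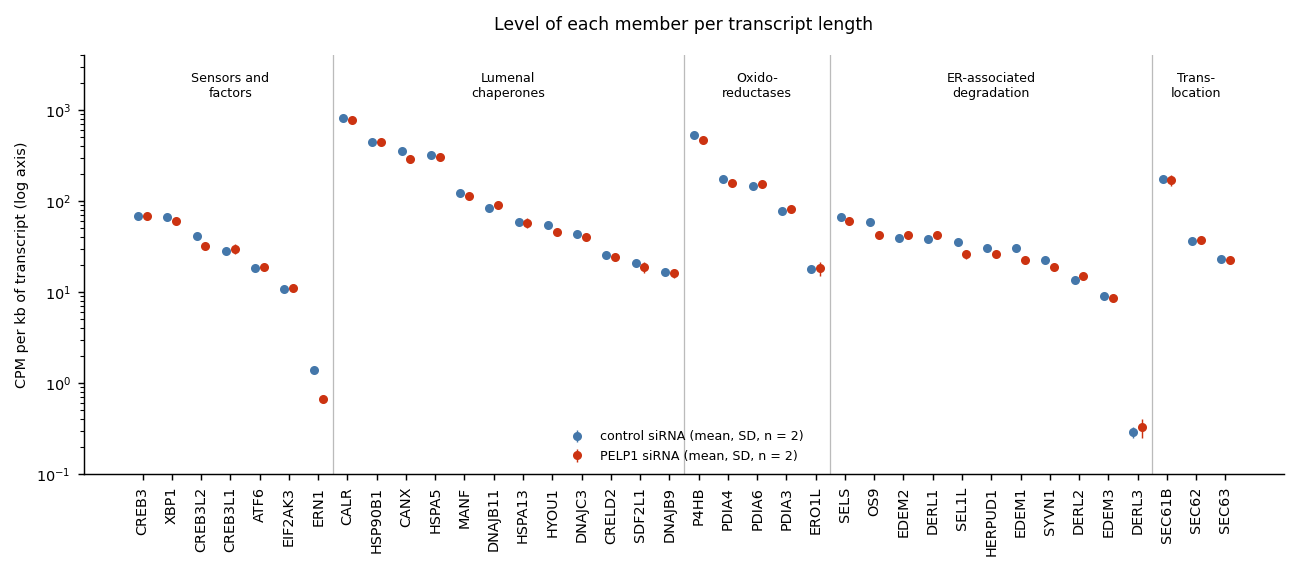
Mean level of each member per kb of its canonical transcript in control siRNA (blue) and PELP1 siRNA (red) libraries, on a log axis, with SD (n = 2 per group) and ordered within each role. CALR at 808 and P4HB at 529 CPM per kb lead, and ERN1 at 1.41 and DERL3 at 0.288 stand lowest.

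The PELP1 siRNA libraries lay further apart than the control libraries in 28 of the 38 members (73.7%), as they did in 69.3% of all genes of at least 5 CPM. The median absolute log2 difference within a pair was 0.0419 between the control libraries and 0.12 between the PELP1 siRNA libraries for the members, beside 0.058 and 0.117 for all genes of at least 5 CPM. The number of members called lower depended on which library was left out. With control library 1 left out it was 6 and with control library 2 left out 5, fits that rest on the spread of the PELP1 siRNA pair, and 16 without PELP1 siRNA library 1 and 17 without PELP1 siRNA library 2, fits that rest on the spread of the control pair. Such a fit takes the lone library to vary as much as the remaining pair. The share of all genes called lower moved with it, at 7.01%, 7.98%, 20.8% and 19.5% in these 4 fits. Members called higher numbered 0, 0, 3 and 5, where 3.89%, 4.56%, 20.2% and 19.3% of all genes were called higher. The 3 without PELP1 siRNA library 1 were CREB3L1, DNAJB11 and DERL1, and the 5 without library 2 were EIF2AK3, PDIA6, ERO1L, DERL1 and SEC62.

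Called and uncalled members both carry the promoter elements. Of the 7 members with an ERSE, CANX was called lower, and HSPA5, HSP90B1, CALR, PDIA6, XBP1 and CRELD2 were not called. Of the 3 with an ERSE-II, HYOU1 and HERPUD1 were lower and SDF2L1 was not called. Together 10 members carry either element, of which 3 were lower, beside 26.3% of all members, and 44 genes in all do. Among all 16 tested genes with an ERSE in a window, members included, 5 were called lower and 2 higher, beside 15% and 12.9% of all genes tested. The median log2 fold change of the 16 was -0.074. Both members with the ATF4 composite element, CREB3L2 and HERPUD1, were lower. Among all 306 tested genes with that element 67 were called lower and 36 higher, beside 15% and 12.9% of all genes tested. The windows of EDEM1, ERN1, OS9, P4HB, SEL1L and SYVN1, 6 of the 10 lower members, hold no exact match to the elements searched. An exact match was likewise absent in 23 of all 35 members with a window. Variant spellings were not searched, so these windows may hold related elements.

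The 3' UTRs of genes lower with PELP1 siRNA in these data are rich in the 7-base words GCCTTGA and CTCAGTT, which also occur in PELP1 mRNA. The words were picked on these same fold changes and only among words that occur in PELP1 mRNA. Neither property is therefore a separate result, and the part of the words in the results here was not tested. At least 1 of the 2 words occurred in 42.7% of the 3' UTRs of genes called lower, 22.7% of those not called and 18.3% of those called higher. Among the members it stood in 4 of the 10 lower genes (ERN1, SEL1L, HYOU1 and CANX) and in 3 of the 28 not called (DNAJC3, EDEM3 and SEC62). The median 3' UTR was 2286 bases in the lower members and 931 bases in the members not called. These are the sites, with the word in capitals and 11 bases on either side, written on the gene's strand with the GRCh37 coordinates of the word.
ERN1, chr17:62121227-62121233: ccaaaccaagtGCCTTGAgctgcctgctc
ERN1, chr17:62118213-62118219: cccggcctaatCTCAGTTtttgaagtgct
SEL1L, chr14:81943294-81943300: cactgggtccaGCCTTGAtcagtgacagc
SEL1L, chr14:81942515-81942521: gaatatacagaGCCTTGAtccagaagcca
SEL1L, chr14:81939004-81939010: gtcttgaagcaGCCTTGAtatgtagtaag
HYOU1, chr11:118915844-118915850: gtctgcagagcCTCAGTTaccaggtttgg
CANX, chr5:179156328-179156334: gtgttctgtagCTCAGTTcccagacagct
DNAJC3, chr13:96445532-96445538: gttgagtttcaGCCTTGAtggctgtcggc
DNAJC3, chr13:96446240-96446246: ttaattcattcCTCAGTTctgaaagtttg
EDEM3, chr1:184661287-184661293: ttacttgacttGCCTTGAtttataggact
EDEM3, chr1:184660650-184660656: atctggtctacCTCAGTTaaatgttgact
SEC62, chr3:169712810-169712816: agaaatttcagCTCAGTTtctattttact
ERN1, DNAJC3 and EDEM3 carry both words, with log2 fold changes of -1.07, -0.12 and -0.091. OS9, EDEM1, CREB3L2, SYVN1, HERPUD1 and P4HB, all called lower, carry neither word.

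Other genes of the ER and of its stress response were described by lists, which were drawn up with earlier results of these data known and are given as counts without a test. In 7 lists of other ER regulators, chaperones, oxidoreductases, glycan, translocation, degradation and transport factors, 186 genes were tested, of which 24 (12.9%) were called lower and 18 (9.68%) higher, with a median log2 fold change of 0.028. Among other ER-associated degradation factors, 3 of 29 were lower and 1 higher. UBXN4, which tethers p97 to the ER, was the strongest of these 3, with 224 and 222 CPM in control and 159 and 137 CPM in PELP1 siRNA libraries (log2 fold change -0.59, adjusted p = 1.15e-06). The 1 higher gene, ERLIN2, had 159 and 164 CPM against 209 and 179 CPM (log2 fold change 0.26, adjusted p = 0.00840, but 0.211 and 0.117 without control library 1 or 2). Among 17 other regulators of the ATF6 and IRE1 arms, 3 were lower and 1 higher. ATF6B, the close relative of ATF6, fell from 45.1 and 47.0 CPM to 31.8 and 37.99 CPM (log2 fold change -0.40, adjusted p = 0.00261, and 0.0823 without control library 2), and BAK1, a pore-forming member of the BCL2 family that binds IRE1, rose from 8.56 and 8.66 CPM to 12.9 and 14.9 CPM (log2 fold change 0.69, adjusted p = 0.000243).

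Of 24 other ER chaperones and proline isomerases, 5 were higher and 2 lower. TOR1B, an ATPase of the torsin family, fell by 0.52 on the log2 scale (adjusted p = 3.05e-05). CDNF, the close relative of MANF, was called higher on 6 to 21 counts per library (adjusted p = 0.0116, and 0.212 without control library 2). Among 18 other members of the disulfide isomerase family and related factors, TMX3 fell by 0.58 (adjusted p = 1.03e-06) and TMX2 rose by 0.25 (adjusted p = 0.0104, and 0.251 and 0.174 without control library 1 or 2). Of 30 genes of N-glycan transfer and the calnexin cycle, 3 were lower and 2 higher. The lectin MLEC fell by 0.29 (adjusted p = 0.000964, and 0.0592 and 0.0960 without control library 1 or 2), and ALG14, a subunit of an early glycan transferase, rose by 0.58 (adjusted p = 0.00511, but 0.0567 with DESeq2 and 0.180 without control library 1). Of 27 other translocation and signal peptide factors, 4 were lower and 5 higher. SSR1, a subunit of the translocon-associated complex, fell from 203 and 204 CPM to 124 and 125 CPM (log2 fold change -0.71, adjusted p = 2.07e-08), and SPCS1, a subunit of signal peptidase, rose by 0.35 (adjusted p = 0.000605, and 0.144 without control library 1).

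Of 41 genes of transport between the ER and the Golgi, 8 were lower and 3 higher. SEC22B, a vesicle SNARE, had the largest fitted change of the 24 lower genes in these 7 lists, from 350 and 370 CPM to 144 and 127 CPM (log2 fold change -1.41, adjusted p = 7.47e-13). TRAPPC1, a subunit of a tethering complex, rose by 0.23 (adjusted p = 0.0180, but 0.249 and 0.272 without control library 1 or 2). In the arm of PERK and ATF4, 15 of 20 genes were lower and 1 higher, with a median log2 fold change of -0.35. STC2, a secreted glycoprotein induced by ATF4, fell from 339 and 334 CPM to 206 and 213 CPM (log2 fold change -0.69, adjusted p = 1.88e-08). EIF2S1, the subunit of eIF2 that PERK phosphorylates, rose by 0.18 (adjusted p = 0.0342, and 0.343 and 0.409 without control library 1 or 2). In the list of cytosolic heat shock proteins, which also holds the mitochondrial HSPE1, 7 of 25 were lower and 1 higher. HSPB8 stood at -0.52 on the log2 scale (adjusted p = 6.19e-06) and HSPE1 at 0.32 (adjusted p = 0.0245). The HSPE1 call was lost with DESeq2 (0.113), without control library 1 (0.216) or 2 (0.203) and without PELP1 siRNA library 2 (0.0910). A word of those described for the 3' UTRs stood in 6 of the 8 lower genes of transport to the Golgi, 2 of 3 in the glycan list, 1 of 3 regulators, 1 of 2 chaperones, the 1 oxidoreductase, 1 of 4 translocation factors, 1 of 3 degradation factors, 1 of 7 heat shock proteins and 1 of 15 genes of the ATF4 arm, beside 42.7% of all lower genes. The higher genes EIF2S1, BAK1, ALG14 and ERLIN2 also carry a word. The share of lower genes was thus 26.3% in the 38 members and 75% in the ATF4 arm. It was 28% in the cytosolic heat shock list and 12.9% in the 7 pooled ER lists, beside 15% of all genes tested. The differences between these shares were not tested.

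**Figure D5:**
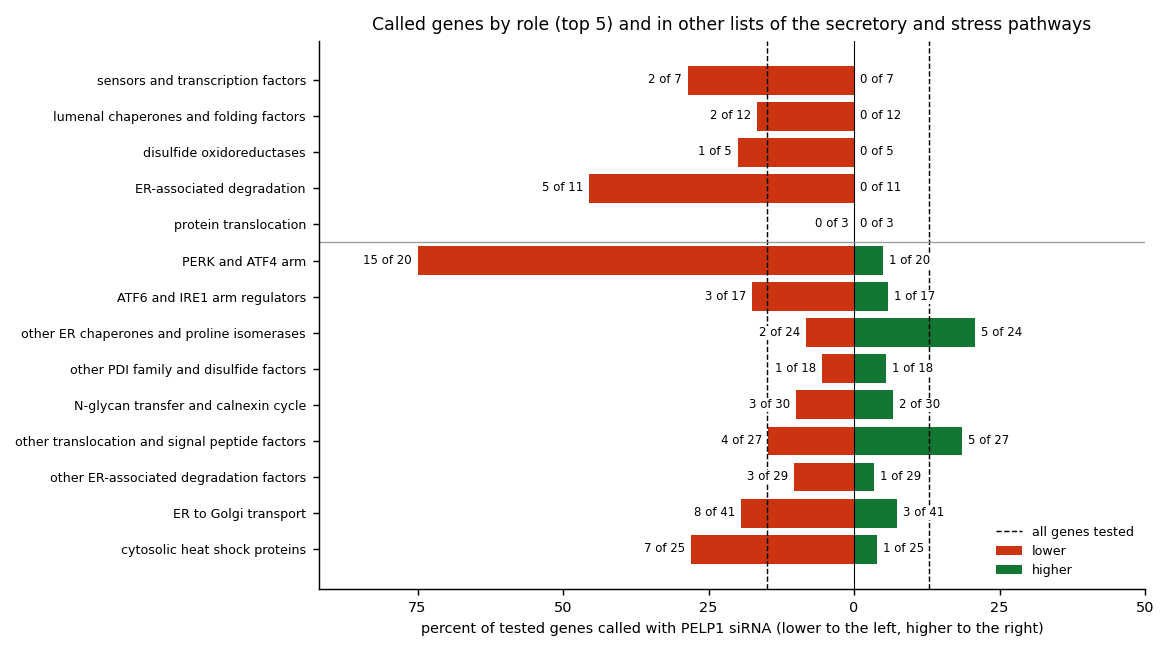
Percent of tested genes called lower (red, to the left) and higher (green, to the right) with PELP1 siRNA in the 5 roles of the 38 members (above the line) and in 9 other lists (below it), with dashed lines at the 15% and 12.9% of all genes tested. ER-associated degradation, with 5 of 11, has the longest bar among the 5 roles, and the PERK and ATF4 arm, with 15 of 20, the longest of all.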

How the data were processed

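In 2 control siRNA and 2 PELP1 siRNA libraries of U87 MG cells, RNA was sequenced as 50 bp single-end reads from total RNA libraries, per the labels' protocols. Per the submitters' processing notes, CASAVA 1.8.2, TopHat2 2.0.8b and HTSeq were used with hg19 (GRCh37). The deposited values are raw counts per gene symbol, which the authors left without normalization. The HTSeq version, its strand setting and the annotation release were not given in the sources used here. Reads of multiple alignment or overlapping genes are usually left out by such counting, so genes that share exons are uncertain. The counter's summary lines, 36.0 to 37.6% of each column, were left out.

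Groups came from the sample titles. Genes passing filterByExpr (minimum count 10, minimum total 15) numbered 13234 of 23228. Counts were TMM-scaled and fitted with edgeR 4.0.16 (R 4.3.3, robust quasi-likelihood, group as the only term), with Benjamini-Hochberg adjustment over all genes tested. Every adjusted p is from this main fit unless DESeq2 1.42.0, limma-voom (limma 3.58.1) or another alternative is named beside it. SE and 95% intervals come from the main fit. The biological coefficient of variation was 5.23%, so the spread between libraries limits precision more than depth does, except for genes of few counts. On simulated data of 13167 genes, the fit recovered 23 of 50 changes of 1.25-fold, 42 of 50 of 1.5-fold and 44 of 49 of 2-fold. Of its 165 calls, 6 were false. Only 200 genes had been changed there, while 1712 were called higher and 1980 lower in the real data. With more genes changed an adjusted p threshold is easier to pass, so these recovered shares do not carry over to the real data.

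The members, lists, alternatives and naming rule (all members, PELP1, and the smallest adjusted p in each direction of each list) were chosen with earlier results of these data known. Replicate numbers are shared by both groups but the labels do not say that they pair libraries, so they stayed out of the model. Positions and exon sharing are from GENCODE v44lift37 (GRCh37), promoters from RefSeq (GRCh38.p14). Alternatives were 3 other scalings, 2 other filters, DESeq2, limma-voom, a fit without robust shrinkage, a replicate block, a minimum fold of 1.5 and leaving out each library. The 13 alternatives counted for lower members leave out the minimum fold of 1.5.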

Additional observations from a re-analysis of the deposited data

How the results depend on the processing

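Apart from the minimum fold of 1.5, ERN1, CREB3L2, EDEM1, SEL1L and OS9 kept their direction and call in all 13 alternatives. The other 5 lower members kept their direction. DESeq2 called 1131 genes higher in place of 1712. Requiring a fold above 1.5 left 50 higher and 156 lower genes, among the latter 1 member (ERN1). Scaling by total counts moved the median of all genes by 0.048 and that of the members to -0.024, called 1 member higher (DERL1) and reversed the sign of 5 members that were not called: CREB3 (0.038), HSP90B1 (0.029), HSPA13 (0.012), DNAJB9 (0.014) and SEC61B (0.0097). Without a filter ATF6 was at -0.0024. Leaving out each library in turn gave 523 to 2724 genes higher, 943 to 2804 lower, 0 to 5 members higher, 5 to 17 members lower and a member median of -0.080 to -0.055. Over those 4 fits the sign changed in 11 members that were not called, with ranges of -0.063 to 0.082 for ATF6, -0.046 to 0.18 for EIF2AK3, -0.044 to 0.22 for CREB3L1, -0.17 to 0.094 for HSPA13, -0.15 to 0.083 for DNAJB9, -0.18 to 0.027 for CRELD2, -0.15 to 0.20 for ERO1L, -0.19 to 0.010 for EDEM3, -0.068 to 0.40 for DERL3, -0.18 to 0.10 for SEC61B and -0.029 to 0.11 for SEC62. The cause of these shifts was not tested, and each of these fits also held fewer libraries. The replicate numbers were not treated as pairs: the differences between replicates 1 and 2 in the 2 groups had a correlation of -0.031 across genes, and with 2 pairs this says little. With the replicate block 1613 genes were higher and 1968 lower, 0 members higher and 10 lower, the member median was -0.072 and all 38 members kept their call, while EIF2S1 lost its own (adjusted p = 0.0554). Depth limits DERL3 and CDNF, and the simulated data show that small changes are often missed with 2 libraries per group.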
